A study of Mus musculus with 24 samples.

Results

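The platelet-derived growth factor (PDGF) family comprised 4 ligand genes, *Pdgfa*, *Pdgfb*, *Pdgfc* and *Pdgfd*, and 2 receptor genes, *Pdgfra* and *Pdgfrb*. These 6 genes were chosen by name from the 32288 genes counted, and each was found on 1 row. Nuclei of 2 brain regions, deep brain and cortex, were taken from 6 mutant and 6 control mice of the strain B6.Pdgfbtm3Cbet, with 1 library per mouse and region (24 libraries). Mutants were *Pdgfb* ret/ret and carried only the ret allele, which codes for PDGF-B without its retention motif. Controls were *Pdgfb* ret/wt and carried 1 ret allele themselves, so every mouse had the allele and none was wild type. By the labels the mice were about 4 to 5 months old, mutants were female, and control mouse 6 was the only male. The mice received no agent that differed between the groups, and the deep brain was taken as the calcification-prone region and the cortex as the calcification-free region.

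PDGF ligands are dimers that bind receptor tyrosine kinases. PDGF-B is made by endothelial cells, is held near the vessel wall by its basic retention motif, which binds heparan sulphate, and recruits mural cells (pericytes and vascular smooth muscle cells) that carry PDGFRβ. PDGF-A signals through PDGFRα, the receptor that marks oligodendrocyte precursor cells (OPC), and drives their proliferation. PDGF-C and PDGF-D are secreted with a CUB domain that has to be cut off before they bind, PDGF-C to PDGFRα and PDGF-D to PDGFRβ.

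The end of the coding sequence of *Pdgfb* is shown because the ret allele changes this part of the protein, and the matching end of the long *Pdgfa* transcript because it carries a like basic stretch. Each line gives, from the gene's strand in GRCm38, the 20 codons that held the most lysine and arginine codons within the last 60 codons of the transcript, with those codons in capitals.
Pdgfb-201: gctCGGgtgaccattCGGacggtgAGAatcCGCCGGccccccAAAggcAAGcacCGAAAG
Pdgfa-201: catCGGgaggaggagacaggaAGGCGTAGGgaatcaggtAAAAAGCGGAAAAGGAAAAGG
The *Pdgfb* stretch held 9 basic codons. It spans codons 206 to 225 of 241, in exon 6 of 7, at chr15:79997631-79997690 on the minus strand. The *Pdgfa* stretch held 11. It spans codons 188 to 207 of 211, in exons 5 and 6 of 7, between 138978650 and 138979164 on the minus strand of chromosome 5. The other 3 coding *Pdgfa* transcripts have 196 codons, and their most basic stretch lies elsewhere and held 8. A 5′ gene count does not read these bases apart, so the 2 *Pdgfb* alleles of a control, or a long and a short *Pdgfa* transcript, cannot be told apart. *Pdgfa* lies at 138976014 to 138997370 of chromosome 5 (minus strand), *Pdgfb* at 79995874 to 80014977 of chromosome 15 (minus strand), *Pdgfc* at 81036416 to 81214040 of chromosome 3, *Pdgfd* at 6168584 to 6378850 of chromosome 9 and *Pdgfra* at 75152292 to 75198215 of chromosome 5 (GRCm38).

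After filtering, 124958 deep brain nuclei and 79967 cortical nuclei remained. Libraries held 64736053 to 96459036 unique molecular identifiers (UMIs) in the deep brain and 23625232 to 95605387 in the cortex, and pairs of libraries shared 60 to 246 barcodes. Clusters were named from marker genes that did not include the PDGF genes, and for 10 of 12 deep brain classes each marker of the list was highest in the class it names. The cortical classes were less clean. There 4 of 6 markers were highest in oligodendrocytes and in ependymal cells, and 6 of 8 in endothelial nuclei and in OPC. Astrocytes had 6 of 7 and mural nuclei 8 of 10, and the other cortical classes had all. In the cortex 51.9% of nuclei stayed unnamed, mostly in a cluster of 31920 shallow nuclei led by the ribosomal RNA gene *Gm42418*. That cluster held 62.2% to 77.0% of the nuclei of mutant mice 1 to 4 and of control mice 3 and 4, and at most 0.180% of mutant mice 5 and 6 and control mouse 5. In control mice 1, 2 and 6 it held 20.2%, 7.69% and 6.83%. The cortical endothelial cluster of 407 nuclei was a mixture: its astrocyte markers summed to 1887 to 6023 CPM per library against 390.1 to 905 in the deep brain. The cortical mural cluster had 31 nuclei, of which 23 came from control mouse 5. Levels below are CPM, the UMIs of a gene scaled to 1000000 UMIs of the class in a library, and are compared across classes of 1 gene, not between genes.

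In the deep brain *Pdgfb* and *Pdgfd* were highest in endothelial nuclei (*Pdgfd* not under the looser naming limits below), *Pdgfc* in ependymal cells and *Pdgfa* in mural nuclei, and each receptor gene had a main class of its own. Neurons, 51.4% of the deep brain nuclei, held 73.5% of the UMIs of all genes, and 70.5% of the *Pdgfa*, 67.7% of the *Pdgfb*, 73.5% of the *Pdgfc* and 11.2% of the *Pdgfd* UMIs. Each ligand was thus at or below the share of all genes there. *Pdgfb* was highest in endothelial nuclei, with 209 ± 33.8 CPM (mean ± SD, n = 12 libraries; range 153 to 282), and second in microglia and macrophages, with 77.6 ± 19.0 (46.8 to 109). These ranges did not overlap. Choroid plexus epithelium followed with 31.0 ± 17.7 CPM (9 libraries), neurons had 4.91 ± 1.67, and oligodendrocytes 0.72 ± 0.33. At least 1 *Pdgfb* UMI was seen in 28.9% of 675 endothelial nuclei (exact 95% interval 25.5% to 32.5%) and in 14.4% of microglia and macrophages (13.3% to 15.6%). The share in oligodendrocytes, taken as a class without the gene, was 0.19% at a median of 2671 UMIs per nucleus, while endothelial nuclei had a median of 1919 UMIs and microglia 2243. Intervals and shares of this kind cover counting error only. Microglia and macrophages held 12.3% of all *Pdgfb* UMIs and endothelial nuclei 7.10%, although the last class was 0.540% of nuclei. The endothelial level depended on which clusters were named: with the looser naming limits, which add 311 nuclei with many called doublets, it was 83.6 CPM.

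*Pdgfd* was high in endothelial nuclei and fibroblasts but not in mural nuclei. Mural nuclei had 61.8 ± 99.0 CPM, with 0 in 6 of 11 libraries and a UMI in 7.77% of nuclei. Endothelial nuclei had 689.7 ± 241 CPM (n = 12 libraries; 58.2% of nuclei with a UMI), fibroblasts 471 ± 104 (52.9%), choroid plexus epithelium 334 ± 106 (9 libraries) and astrocytes 272 ± 77.1 (39.6%). Neighbours in this order overlapped in their ranges over libraries, and with the looser naming limits the order turned, with 455 CPM in fibroblasts, 334 in choroid plexus epithelium and 322 in endothelial nuclei. OPC had 26.0 ± 10.2 CPM and oligodendrocytes 0.98 ± 0.43, with a UMI in 0.27% of nuclei. Astrocytes, 8.34% of the nuclei, held 49.8% of all *Pdgfd* UMIs. Among neurons the dopaminergic cluster stood highest, at 22.3 ± 11.9 CPM, against 0.45 to 5.22 in the other neuron types.

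*Pdgfc*, a ligand of PDGFRα, was highest in the cells that line the ventricles, at 159.9 ± 71.2 CPM in ependymal cells (n = 12 libraries) and 152 ± 37.6 in choroid plexus epithelium (9 libraries), which did not differ beyond their spread. Astrocytes had 57.4 ± 13.7 CPM, neurons 41.3 ± 4.88, oligodendrocytes 38.8 ± 12.8 and OPC 36.5 ± 7.10, and these 4 classes overlapped. Oligodendrocytes were uneven: the main cluster of 25077 nuclei, with *Il33* and *Aspa* among its leading genes, had 45.7 CPM over its pooled nuclei, and a cluster of 4676 nuclei led by *Enpp6* and *Anln* had 6.47. For *Pdgfa* these clusters stood the other way round, at 26.1 and 46.6 CPM. Macrophages (*Cd74*, *Mrc1*) had 75.3 CPM of *Pdgfc* and the main microglial cluster 5.20, while for *Pdgfb* the macrophages were lower (64.1 and 77.1 CPM). *Pdgfa*, the main ligand of PDGFRα in OPC, was spread more evenly. Mural nuclei had 106 ± 54.4 CPM (11 libraries, but 32 UMIs in all), choroid plexus epithelium 81.6 ± 36.4, committed oligodendrocyte precursors 43.2 ± 27.3, oligodendrocytes 29.7 ± 5.33, neurons 17.6 ± 1.87 and astrocytes 7.56 ± 1.22. Neighbours in this order down to neurons overlapped, and astrocytes (5.56 to 9.35 CPM) lay below neurons (14.5 to 21.5). In the less clean cortical classes the ligands had other highest classes. *Pdgfb* had 69.7 CPM in microglia and macrophages and 44.8 in the endothelial mixture, but 57.5 and 74.1 with a first resolution of 0.1. *Pdgfd* was highest in fibroblasts (550.6 CPM), and *Pdgfc* and *Pdgfa* in choroid plexus epithelium (98.8 and 104.6, 3 libraries).

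**Figure D1:**
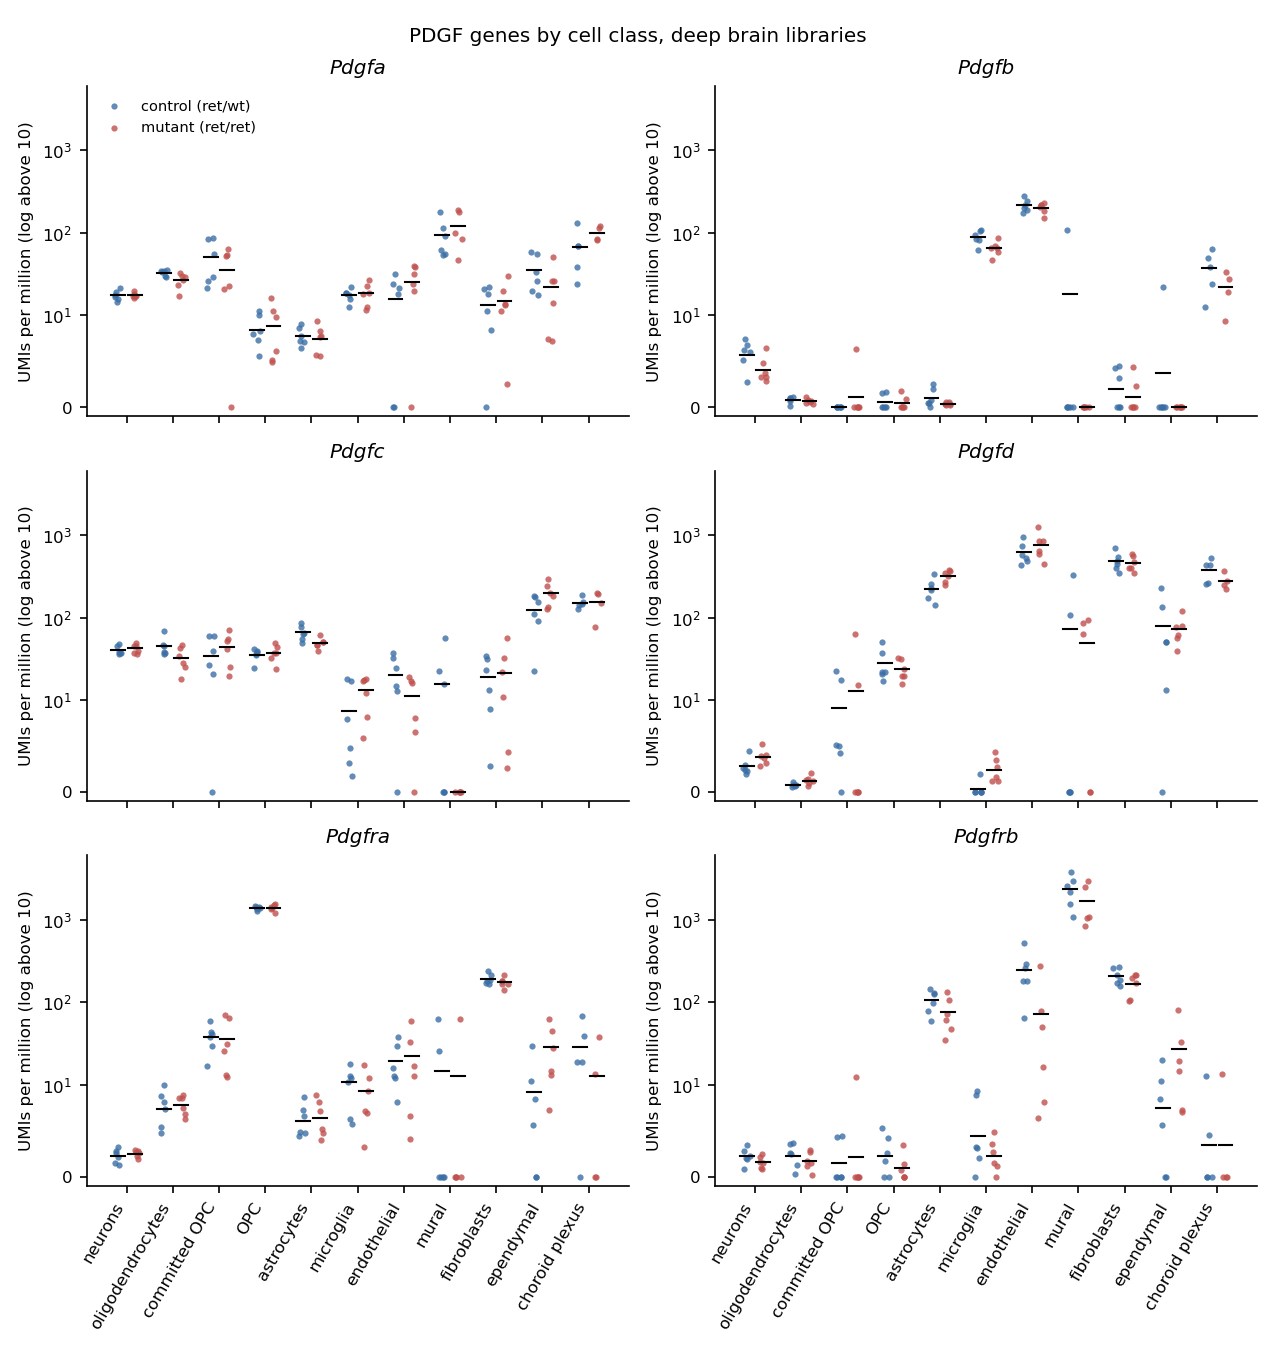
Level of each PDGF gene (vertical axis, CPM of the class, linear below 10 and logarithmic above) in 11 cell classes of the deep brain (horizontal axis). Each point is a library with at least 5 nuclei of the class, blue for control and red for mutant, and black lines are means. *Pdgfra* stands highest in OPC and *Pdgfrb* in mural nuclei, whereas *Pdgfd* is high in endothelial cells, fibroblasts, choroid plexus epithelium and astrocytes.

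Both receptor genes were concentrated. *Pdgfra* reached 1393 ± 87.6 CPM in OPC (n = 12 libraries; 98.5% of 3324 nuclei with a UMI). Fibroblasts came second with 183 ± 26.7 CPM (34.1% of nuclei), and the ranges did not overlap. Committed oligodendrocyte precursors, the next stage after OPC, had 37.1 ± 19.6 CPM, and oligodendrocytes had 7.57 ± 1.55 with a UMI in 2.09% of nuclei. *Pdgfrb*, at 61045150 to 61085061 of chromosome 18 (GRCm38), reached 2031 ± 972 CPM in mural nuclei (11 libraries; 80.6% of 206 nuclei), without overlap with the next class. Fibroblasts had 188 ± 50.8 CPM, endothelial nuclei 160.5 ± 155 and astrocytes 90.6 ± 37.2 (23.6% of 10420 nuclei), and these 3 classes overlapped. Of the 222 endothelial *Pdgfrb* UMIs in controls and 86 in mutants, 2 and 5 came from nuclei without a mural marker UMI. The part of mural RNA in the endothelial level was not tested. Oligodendrocytes, taken as a class without the gene, had 1.97 ± 1.18 CPM and a UMI in 0.56% of nuclei at a median of 2671 UMIs, against a median of 3248 UMIs in astrocytes. Astrocytes held 39.6% of all *Pdgfrb* UMIs of the deep brain, and mural nuclei, 0.165% of the nuclei, held 8.56%. In the cortex *Pdgfra* was again highest in OPC (1581 ± 271 CPM) with 171 ± 69.0 in fibroblasts, and *Pdgfrb* had 186 ± 60.4 CPM in fibroblasts and 132 ± 57.1 in astrocytes. The only cortical library with at least 5 mural nuclei, control mouse 5, had 2241 CPM of *Pdgfrb* and 187 of *Pdgfra* in them. That *Pdgfra* value lay above the fibroblast mean, but all 28 cortical mural nuclei of controls together held 8 *Pdgfra* UMIs, in 2 nuclei.

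Fibroblasts, the stromal cells of the meninges and large vessels, fell into 2 clusters that differed in the receptors. In the cluster of 942 nuclei led by *Slc6a20a*, *Ranbp3l* and *Cped1*, pooled nuclei had 270.4 CPM of *Pdgfra* and 292 of *Pdgfrb*. In the cluster of 491 nuclei led by *Slc47a1*, *Adamtsl3* and *Bnc2* they had 38.1 and 24.6. *Pdgfd* went the other way, with 388 CPM in the first cluster and 615 in the second. The cortex held a like pair of clusters, with 259 and 301 CPM of the receptors in 289 nuclei against 49.5 and 57.7 in 165 nuclei, and 423 against 649 CPM of *Pdgfd*. Of all 1433 deep brain fibroblast nuclei, 488 had a *Pdgfra* UMI, 493 a *Pdgfrb* UMI and 232 both. Astrocytes were uneven too: the cluster of 7760 nuclei led by *Slc6a11* and *Etnppl* had 310.2 CPM of *Pdgfd* and 72.8 of *Pdgfrb*, and the cluster of 2581 nuclei led by *Slco1c1* and *Slc1a3* had 169 and 124. These are clusters of the same nuclei, so the values are a description with no test.

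The PDGF-B ligand gene was compared first between genotypes, since its locus carries the mutation. In deep brain endothelial nuclei controls 1 to 6 had 243, 198, 192, 216, 172 and 282 CPM of *Pdgfb*. Mutants 1 to 6 had 219.6, 219, 153, 186, 203 and 227 CPM. The groups overlapped, and the difference of mutant minus control was −0.13 ± 0.18 on the log2 scale (SE; 95% interval −0.51 to 0.25), with an adjusted p of 0.881 by edgeR's quasi-likelihood test with Benjamini-Hochberg adjustment over all genes of the class. Adjusted p values below are from this test. In microglia and macrophages *Pdgfb* lay between 62.7 and 109 CPM in controls (median 88.8) and between 46.8 and 86.4 in mutants (median 66.0). The difference was −0.45 ± 0.15 (edgeR adjusted p = 0.475). Neurons had 2.76 to 7.47 CPM in controls (median 6.14) and 2.90 to 6.45 in mutants (median 3.54), a difference of −0.49 ± 0.24 (edgeR adjusted p = 0.446). In all deep brain nuclei together the difference was −0.41 ± 0.18 (95% interval −0.79 to −0.03, edgeR adjusted p = 0.311). Each of these differences was below 0 and none passed the test. Among deep brain endothelial nuclei with no UMI of a mural marker, mutants tended to lie higher, with overlap. Controls had 47.7 to 245 CPM of *Pdgfb* there (2 to 20 UMIs per library) and mutants 149 to 286 (6 to 31 UMIs). This was not tested, and the mural markers, which differed between genotypes, are given below. In a sum over all nuclei, fewer cells of a type and less RNA per cell cannot be told apart.

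**Figure D2:**
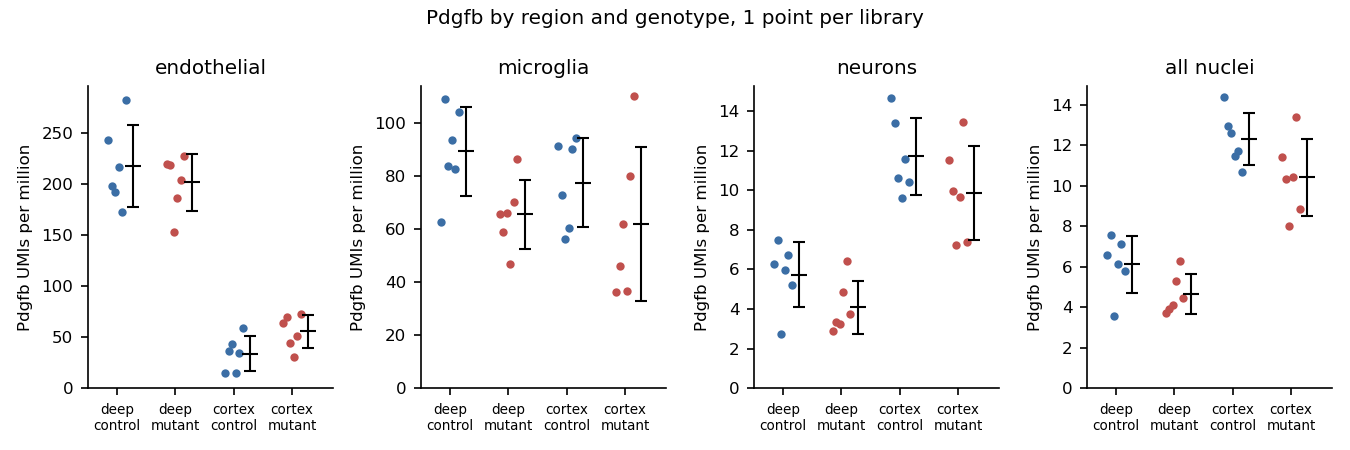
*Pdgfb* level (vertical axis, CPM) in endothelial, microglial, neuronal and all nuclei by region and genotype (horizontal axis). Each point is 1 library, and the black bar beside each group is the mean with 1 SD. Control and mutant points overlap in every panel, and the cortical endothelial cluster, a mixture, lies below the deep brain one.

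Cortical *Pdgfb* did not pass the test between genotypes either. Endothelial nuclei had 14.5 to 59.2 CPM in controls (median 35.7) and 30.5 to 73.2 in mutants (median 57.7), a difference of 0.86 ± 0.30 (edgeR adjusted p = 0.851). Microglia and macrophages had 56.4 to 94.4 CPM in controls and 36.3 to 110.2 in mutants (−0.26 ± 0.26, edgeR adjusted p = 0.851), and neurons 9.61 to 14.7 and 7.21 to 13.4 (−0.18 ± 0.16, edgeR adjusted p = 0.830). The sign of the endothelial difference was opposite in the 2 regions, but the cortical cluster was a mixture. Its 8 endothelial markers summed to 629 to 3337 CPM in controls (median 2517) and to 2349 to 12135 in mutants (median 3449). In the deep brain they summed to 13722 to 19027.5 CPM in controls and to 15205 to 17938 in mutants. The part of the mixture in the cortical difference was not tested. The difference between regions was −0.78 ± 0.37 and did not pass (edgeR adjusted p = 1.00).

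Across the deep brain, 34 pairs of a PDGF gene and a class (28 in 8 classes and 6 in all nuclei) had enough counts to be tested between genotypes, and edgeR called 0 of them. At an unadjusted p under 0.05 there were 8, where 11.9% of all genes over these classes had one. The share of all genes called was 5% in astrocytes, 1.68% in oligodendrocytes, 1.34% in endothelial cells, 1.25% in mural cells, 0.282% in neurons, 0.252% in microglia and macrophages, 0.056% in OPC, 0.0137% in fibroblasts and 1.54% in all nuclei. DESeq2 also called 0 of the deep brain pairs. In the cortex 27 pairs were tested and 1 was called, *Pdgfd* in astrocytes, with 8 at an unadjusted p under 0.05 (8.78% of all genes). The share of all cortical genes called was 2.12% in astrocytes, 1.05% in oligodendrocytes, 0.584% in microglia and macrophages, 0.0371% in endothelial cells, 0.00606% in neurons, 0% in OPC and fibroblasts and 0.275% in all nuclei. All these fits had no block, and calls with a block are given below. In the cortex the replicate block added *Pdgfd* in all nuclei and *Pdgfrb* in astrocytes and in all nuclei.

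*Pdgfd*, the ligand of PDGFRβ with a CUB domain, was higher in cortical astrocytes of mutants. Controls 1 to 6 had 137, 102, 118, 83.6, 69.8 and 80.9 CPM (98.5 ± 25.3). Mutants 1 to 6 had 206, 263, 401, 184, 179 and 244 CPM (246 ± 82.6). The lowest mutant lay above the highest control. The difference was 1.31 ± 0.20 on the log2 scale (95% interval 0.89 to 1.74, edgeR adjusted p = 0.00114), from 295 UMIs in 763 control nuclei and 989 UMIs in 891 mutant nuclei. In the 9 libraries with under 70000000 UMIs the mean difference of log2 CPM was 1.30, and in the 3 deeper libraries mutants had 212 CPM on average and the control 69.8. The main astrocyte cluster of the cortex alone had 98.9 ± 25.8 CPM in controls and 260.2 ± 122 in mutants (exact permutation p = 0.00216, the smallest that 924 splits allow).

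In deep brain astrocytes *Pdgfd* had 218, 251, 336, 225, 140.3 and 170.2 CPM in controls 1 to 6. Mutants 1 to 6 had 369, 345, 373, 246, 319 and 266 CPM. Mutants other than mouse 4 lay above controls other than mouse 3, and the groups overlapped. The difference was 0.51 ± 0.18 (95% interval 0.13 to 0.88), which did not pass (edgeR adjusted p = 0.115). Without control mouse 3 it was 0.66 and passed (edgeR adjusted p = 0.0213), as it did with mice matched by age as a block (0.54, edgeR adjusted p = 0.0240). The larger astrocyte cluster (*Slc6a11*, *Etnppl*) had 254 ± 68.0 CPM in controls and 352 ± 55.2 in mutants (exact permutation p = 0.0195), and the smaller one (*Slco1c1*, *Slc1a3*) 153 ± 44.8 and 214 ± 75.2 (exact permutation p = 0.104). The genotype difference was smaller in the deep brain than in the cortex by 0.73 ± 0.17, and this did not pass (edgeR adjusted p = 0.159).

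Other sources of *Pdgfd* were read beside the astrocyte values. In endothelial nuclei of the deep brain it lay between 436 and 936 CPM in controls and between 439.7 and 1248 in mutants (0.32 ± 0.23, edgeR adjusted p = 0.706), and in fibroblasts the difference was −0.09 ± 0.16 (edgeR adjusted p = 0.998). The 8 endothelial markers summed to 2.38 to 47.0 CPM in cortical astrocytes of controls (median 6.69) and to 7.44 to 318 in those of mutants (median 23.1), where mutant mouse 2 was highest and the next library had 149, and each of the 8 had UMIs in both genotypes. The 7 fibroblast markers summed to 21.7 to 85.7 CPM in controls (median 42.7) and 13.8 to 89.2 in mutants (median 36.2). Without mutant mouse 2 the *Pdgfd* difference in cortical astrocytes was 1.28 (edgeR adjusted p = 0.00323). In all deep brain nuclei *Pdgfd* had 11.7 to 24.8 CPM in controls (median 16.0) and 20.1 to 33.7 in mutants (median 25.7), a difference of 0.56 ± 0.18 (edgeR adjusted p = 0.149), which passed with the age block (edgeR adjusted p = 0.0479). In all cortical nuclei it had 4.63 to 8.21 CPM in controls and 6.88 to 11.0 in mutants (0.48 ± 0.15, edgeR adjusted p = 0.290). With the replicate number as a block the cortical value passed (0.0430).

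**Figure D3:**
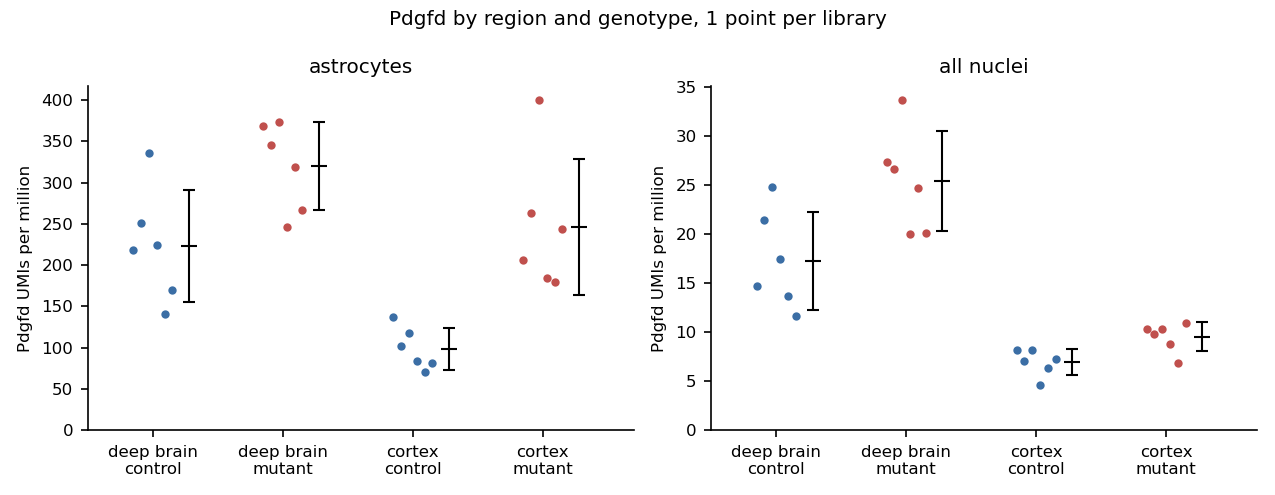
*Pdgfd* level (vertical axis, CPM) in astrocytes and in all nuclei, by region and genotype (horizontal axis). Each point is 1 library and the black bar is the mean with 1 SD. In cortical astrocytes the 6 mutant points, from 179 to 401, all lie above the 6 control points, which end at 137.

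*Pdgfc* went the other way in astrocytes without passing the test. In the deep brain controls had 48.7 to 86.3 CPM (median 64.3) and mutants 39.4 to 60.9 (median 48.4), a difference of −0.46 ± 0.14 (95% interval −0.75 to −0.16, edgeR adjusted p = 0.0688). It passed without mutant mouse 6 (−0.53, edgeR adjusted p = 0.0256) or without control mouse 6 (−0.54, edgeR adjusted p = 0.0262), and with the age block (−0.43, edgeR adjusted p = 0.0473). The larger astrocyte cluster, which had less *Pdgfc* and *Pdgfrb*, held 4532 of 5786 mutant and 3228 of 4634 control astrocyte nuclei, and the part of this mix in the differences was not tested beyond the values within clusters. Within the larger cluster *Pdgfc* had 55.3 ± 7.64 CPM in controls and 46.5 ± 9.66 in mutants (exact permutation p = 0.115), and within the smaller one 81.4 ± 24.9 and 56.8 ± 8.95 (exact permutation p = 0.0519). In the cortex the difference was −0.55 ± 0.20 (edgeR adjusted p = 0.196). In oligodendrocytes it was −0.44 ± 0.21 in the deep brain and −0.42 ± 0.18 in the cortex (edgeR adjusted p = 0.347 and 0.293). *Pdgfa* in oligodendrocytes had 29.1 to 35.0 CPM in deep brain controls and 17.0 to 32.7 in mutants, a difference of −0.27 ± 0.12 (edgeR adjusted p = 0.294), and in neurons the 95% interval of the difference ran from −0.16 to 0.17.

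*Pdgfra* had nearly the same level in OPC of both genotypes. Deep brain controls lay between 1276 and 1472 CPM and mutants between 1215 and 1527, and the difference was 0.01 ± 0.07 on the log2 scale (95% interval −0.14 to 0.16, edgeR adjusted p = 0.995). In cortical OPC it was −0.09 ± 0.12 (95% interval −0.34 to 0.16, edgeR adjusted p = 0.958), and in deep brain fibroblasts −0.14 ± 0.13 (95% interval −0.42 to 0.14, edgeR adjusted p = 0.979). OPC made up 2.77% ± 0.238 of deep brain nuclei in controls and 2.58% ± 0.254 in mutants (exact permutation p = 0.201, adjusted 0.403 over the 4 classes compared).

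Mural nuclei, the main class with *Pdgfrb*, were fewer in the deep brain of mutants. Controls 1 to 6 gave 26, 22, 36, 16, 26 and 27 mural nuclei, or 0.202% to 0.372% of their nuclei. Mutants 1 to 6 gave 10, 8, 12, 10, 9 and 4, or 0.0366% to 0.123%. The groups did not overlap, and the mean share was 3.07 times higher in controls (0.254% ± 0.0637 against 0.0829% ± 0.0282, SD, n = 6 mice; exact permutation p = 0.00216, the smallest that 924 splits allow, adjusted 0.00866). A test within replicate numbers gave the smallest exact permutation p that 6 pairs allow, 0.0313. It adjusted to 0.125 and did not pass, since the other classes had exact permutation p values of 0.344 to 0.469 in that test. A larger mural difference alone could not have lowered it. Endothelial nuclei made up 0.572% ± 0.127 in controls and 0.507% ± 0.205 in mutants (exact permutation p = 0.530), and fibroblasts 1.08% ± 0.299 and 1.22% ± 0.154 (exact permutation p = 0.307). In the cortex there were 28 mural nuclei in controls, 23 of them in mouse 5, and 3 in mutants (exact permutation p = 0.0325, adjusted 0.130). The difference passed without control mouse 6 (adjusted exact permutation p = 0.0173), and without control mouse 5 it was −0.0175 percentage points (adjusted exact permutation p = 0.268). The other 3 cortical shares had adjusted exact permutation p values of 0.597 to 0.823. The OPC share among them was lower in the mutant in 6 of 6 same-numbered pairs (1.11% ± 1.09 against 1.44% ± 1.02), and the test within numbers gave its smallest exact permutation p there as well (0.0313, adjusted 0.125). Cortical shares are of all kept nuclei, including the shallow cluster led by *Gm42418*. It held 62.2%, 73.3%, 64.0%, 77.0%, 0.161% and 0.173% of nuclei in mutants 1 to 6. Controls 1 to 6 had 20.2%, 7.69%, 74.3%, 76.5%, 0.180% and 6.83% in it. Its part in these shares was not tested.

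Within mural nuclei *Pdgfrb* had 1081 to 3765 CPM in controls (median 2357) and 845 to 2915 in the 5 mutants with at least 5 mural nuclei (median 1080.5). The difference was −0.42 ± 0.36 (95% interval −1.17 to 0.34, edgeR adjusted p = 0.606), from 534 UMIs in controls and 133 in mutants. In all deep brain nuclei it had 4.73 to 14.1 CPM in controls and 3.77 to 9.99 in mutants (−0.48 ± 0.26, edgeR adjusted p = 0.457). In all cortical nuclei it had 3.85 to 10.2 CPM in controls and 2.87 to 7.59 in mutants, a difference of −0.71 ± 0.26 (95% interval −1.26 to −0.16, edgeR adjusted p = 0.387), which passed with the replicate block (−0.73, edgeR adjusted p = 0.0430).

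**Figure D4:**
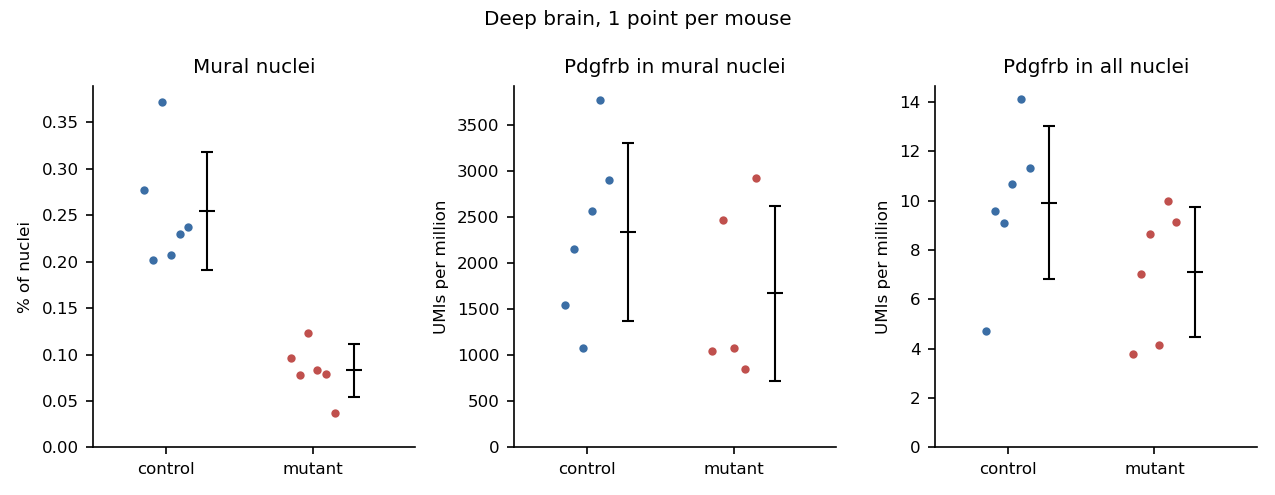
Deep brain share of mural nuclei (left, % of nuclei) and *Pdgfrb* level in mural and in all nuclei (middle and right, CPM) in control and mutant mice. Each point is 1 mouse and the black bar is the mean with 1 SD. The mural shares of the genotypes do not overlap, and the *Pdgfrb* levels do.

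Astrocytes and fibroblasts, the other carriers of *Pdgfrb*, had lower mean levels in mutants, and none of these differences passed with all mice and no block. In astrocytes of the deep brain controls had 58.6 to 144 CPM (median 112) and mutants 35.0 to 133 (median 66.0), a difference of −0.51 ± 0.28 (edgeR adjusted p = 0.362). In cortical astrocytes the difference was −0.62 ± 0.24 (edgeR adjusted p = 0.232), and −0.69 with the replicate block (edgeR adjusted p = 0.00764). Without mutant mouse 6 it was −0.89 (edgeR adjusted p = 0.0247). In deep brain fibroblasts it was −0.34 ± 0.19 (edgeR adjusted p = 0.921). Mural markers in deep brain astrocytes summed to 107 to 151 CPM in controls and 137 to 181 in mutants. The *Pdgfrb* values also differed between mice of 1 genotype: mutant mice 1 and 4 and control mouse 1 had the 3 lowest levels over all nuclei in both regions.

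In deep brain endothelial nuclei *Pdgfrb* had 178, 258, 179, 63.6, 291 and 519.9 CPM in controls 1 to 6. Mutants 1 to 6 had 49.9, 6.43, 277, 8.09, 78.8 and 16.2 CPM. Mutant mouse 3 stood far above the other mutants. The difference was −1.59 ± 0.52 (95% interval −2.67 to −0.51, edgeR adjusted p = 0.160), and without mutant mouse 3 it was −3.06 (edgeR adjusted p = 0.00167). The 10 mural markers in these endothelial nuclei summed to 1030.2 to 3711 CPM in controls (median 2349) and 96.5 to 1575 in mutants (median 614). Among endothelial nuclei with no UMI of any mural marker, 217 in controls held 2 *Pdgfrb* UMIs and 249 in mutants held 5, against 222 and 86 UMIs in all endothelial nuclei. The mean level in them was 5.15 CPM in controls and 11.4 in mutants (exact permutation p = 0.307). These few UMIs cannot show whether the level differed in nuclei without mural markers, and the part of mural RNA in the difference was not tested. In the cortical endothelial cluster the difference was −1.23 ± 0.37 (edgeR adjusted p = 0.722).

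**Figure D5:**
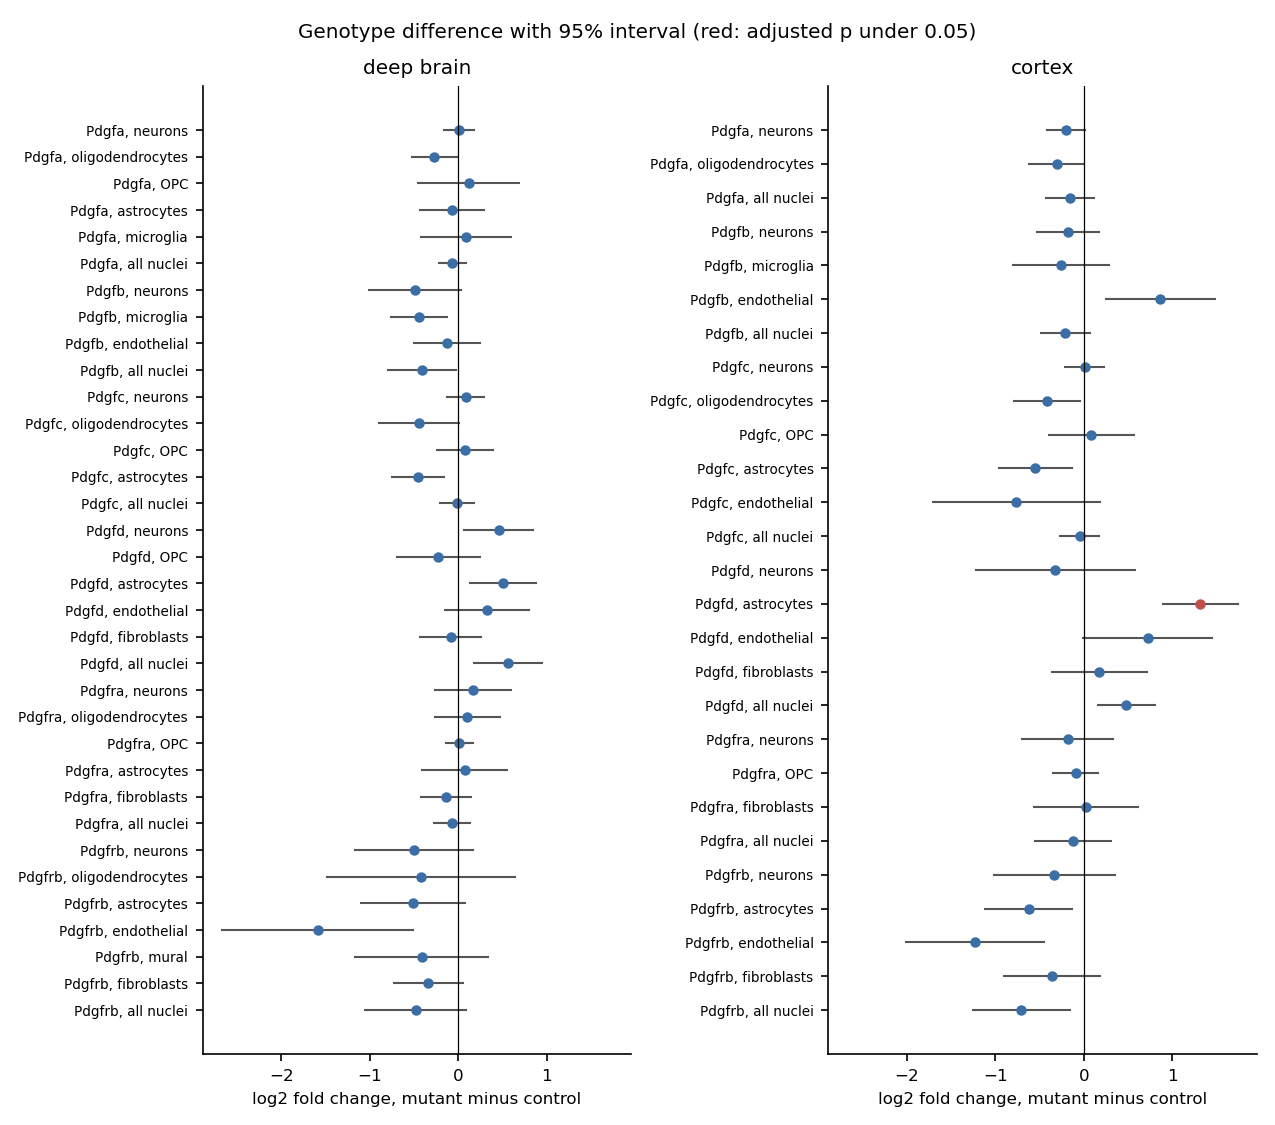
Difference of mutant minus control (horizontal axis, log2 fold change) for every PDGF gene and class tested in the deep brain (left) and the cortex (right). Points are edgeR estimates of the fits without a block, and lines are 95% intervals. Red marks an adjusted p under 0.05, which only *Pdgfd* in cortical astrocytes reached (1.31).

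The same genes were compared between the regions in control mice, where both libraries of a mouse formed a pair. Of 40 pairs of gene and class, 13 were called and 16 had an unadjusted p under 0.05 (32.7% of all genes). The regions differ in much else: all genes called were 42.2% in neurons, 53.6% in the mixed endothelial cluster and 40.5% in all nuclei, but 12.6% in astrocytes, 9.8% in oligodendrocytes, 4.64% in OPC, 4.39% in microglia and macrophages and 1.21% in fibroblasts. In astrocytes *Pdgfd* was higher in the deep brain by 1.15 ± 0.13 on the log2 scale (edgeR adjusted p = 3.35e-08), from 140.3 to 336 CPM against 69.8 to 137. *Pdgfrb* fell by 0.63 ± 0.11 from cortex to deep brain (edgeR adjusted p = 8.93e-05), from 85.7 to 238 CPM to 58.6 to 144, and without the pairing of libraries by mouse this did not pass (−0.68, edgeR adjusted p = 0.139). *Pdgfc* in astrocytes did not pass (−0.14 ± 0.14, edgeR adjusted p = 0.628).

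*Pdgfb* was lower in deep brain neurons than in cortical neurons (−1.18 ± 0.16, edgeR adjusted p = 5.72e-05). Neurons of controls had 2.76 to 7.47 CPM in the deep brain and 9.61 to 14.7 in the cortex, without overlap. The neuron types differed too: the deep brain cluster of *Slc17a7* glutamatergic neurons, the main excitatory type of the cortex, had 12.0 ± 3.20 CPM, and the other deep brain types 0.81 to 9.12. Cortical neurons outside the named types had 13.7 ± 3.42. In neurons *Pdgfd* was higher in the deep brain by 1.57 ± 0.29 (edgeR adjusted p = 6.98e-04) and *Pdgfc* was lower (−0.55 ± 0.12, edgeR adjusted p = 0.00208). *Pdgfb* in oligodendrocytes was called as well (−2.22 ± 0.48, edgeR adjusted p = 0.00249), on 34 UMIs in the deep brain and 30 in the cortex. This class was taken above as one without the gene. Its 6 neuron markers summed to 547 to 856 CPM in deep brain controls (median 766) and to 1117 to 1730 in cortical controls (median 1426). The part of neuronal RNA in this call was not tested. In endothelial nuclei *Pdgfb* (2.41), *Pdgfd* (1.88) and *Pdgfrb* (1.53) were higher and *Pdgfc* (−1.98) lower in the deep brain, beside the astrocyte markers of the cortical cluster given above, whose part in this was not tested. The 10 mural markers in endothelial nuclei of controls summed to 1030.2 to 3711 CPM in the deep brain and 49.3 to 1106 in the cortex. Their part was not tested either. In all nuclei *Pdgfb* (−1.13) and *Pdgfc* (−0.43) were lower and *Pdgfd* (1.19) higher in the deep brain. *Pdgfa* in all nuclei (−0.26 ± 0.10, edgeR adjusted p = 0.0556) lay close to the threshold and passed with DESeq2 (adjusted p = 0.0280), with RLE factors (0.0344) and without mutant mouse 4, 5 or 6 or control mouse 5 or 6 (−0.33 to −0.26, edgeR adjusted p = 0.0298 to 0.0473). *Pdgfra* in neurons (−0.53 ± 0.21, edgeR adjusted p = 0.0582) likewise passed with DESeq2 (adjusted p = 0.0413) and without mutant mouse 3 or control mouse 5 (edgeR adjusted p = 0.0388 and 0.0285). *Pdgfra* in OPC differed by −0.19 ± 0.08 (edgeR adjusted p = 0.218) and *Pdgfb* in microglia by 0.14 ± 0.18 (edgeR adjusted p = 0.797). The genotype difference itself differed between the regions for 0 of 40 pairs by edgeR, with 4 at an unadjusted p under 0.05 (6.91% of all genes) and 0 called by DESeq2. The share of all genes called in that comparison was 0.205% in neurons, 0.0668% in oligodendrocytes and 0% in the other classes.

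Genes that process PDGF ligands or pass on the receptor signal were listed from knowledge of the pathway (57 genes, all found). Of the list of ligand processing, retention and co-receptors (18 genes, 114 tests in 9 deep brain sets), 3 tests were called higher and 1 lower in mutants, and 13 had an unadjusted p under 0.05, against 11.9% of all genes over these sets. The share of all genes called in a set was 0.0137% to 5%, as given above. *Plau*, a protease (urokinase) that can activate PDGF-D, was lower in neurons (−1.22 ± 0.17, edgeR adjusted p = 0.0211). *Ext1*, a polymerase of the heparan sulphate chains that hold PDGF-B, was higher in oligodendrocytes (0.31 ± 0.06, edgeR adjusted p = 0.0214) and in astrocytes (0.37 ± 0.10, edgeR adjusted p = 0.0439). *Sdc2*, a heparan sulphate proteoglycan, was higher in all nuclei (0.22 ± 0.05, edgeR adjusted p = 0.0480). Of the receptor-proximal list (26 genes, 191 tests), 0 were called higher and 1 lower, with 19 at an unadjusted p under 0.05 beside the same shares. DESeq2 called 4 tests of this list, and 6 of the ligand list. The share of all genes called by DESeq2 is not given. The edgeR call was *Pik3r1*, a subunit of the lipid kinase recruited by the receptors, in astrocytes (−0.50 ± 0.12, edgeR adjusted p = 0.0233). The 13 negative regulators of the receptors gave 0 calls by edgeR in 80 tests, with 8 at an unadjusted p under 0.05 and 0 calls by DESeq2. In the cortex 1 of 165 tests of the receptor-proximal list was called, *Fyn*, a kinase of the Src family, higher in microglia and macrophages (1.25 ± 0.26, edgeR adjusted p = 0.0288), where 0.584% of all genes of that class were called. DESeq2 called 2 tests of this list, and 9 had an unadjusted p under 0.05, against 8.78% of all genes in the cortex. The other lists gave 0 calls by edgeR and by DESeq2 in 90 and 69 cortical tests, with 10 and 4 at an unadjusted p under 0.05. In astrocytes of the deep brain, the class with the highest share of genes called, the medians of the 3 lists in this order were −0.02, −0.03 and −0.10 on the log2 scale, and the median of all genes −0.0035.

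The genes whose level over the 12 deep brain classes was most like that of each member were read from control means of log2(CPM + 1) over 13833 genes, with Pearson's r as a description, since all classes come from the same libraries. For *Pdgfb* these were *F11r* (0.94), *Bri3* (0.93) and *Epn1* (0.93). For *Pdgfd* they were *Timp3* (0.97), *Yap1* (0.95) and *Fbln5* (0.93), and for *Pdgfc* *Arl6* (0.98), *Ptprf* (0.97) and *Tbc1d19* (0.96). *Pdgfa* was nearest to *Fam241a* (0.92), *Snrpa* (0.91) and *Dnaja3* (0.90). *Pdgfrb* was nearest to *Atp13a5* (0.96), *Osmr* (0.94) and *Vtn* (0.92), of which *Atp13a5* and *Vtn* also served to name the mural class. *Pdgfra* had no gene above *C1ql1* (0.80), followed by *Adam12* (0.77) and *Sapcd2* (0.76).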

How the data were processed

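Single nuclei of the deep brain and the cortex of 12 mice were profiled with 10x Genomics 5′ kits. The authors counted UMIs per gene and nucleus with Cell Ranger 5.0.1, introns included, on mm10, and deposited these counts, neither normalized nor filtered on genes per nucleus, as 24 matrices. Groups, mice and replicate numbers come from the labels.

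Following the study, nuclei were kept at over 500 and under 7000 genes and a mitochondrial share under 20%. Unlike the study, all classes were then clustered in 2 steps with scanpy 1.11.5 and Seurat 5.3.0 on 2000 variable genes without the 6 PDGF genes (20 components, resolution 0.01, then 0.1 within clusters) and named from 130 markers. Deep brain clusters with over 30% of nuclei called doublets by Scrublet, clusters whose first gene was mitochondrial or ribosomal, and clusters led by markers of another class stayed unnamed. These limits were tightened after seeing clusters at their edge. Raw counts were summed per library and class, with at least 5 nuclei, and fitted with edgeR 4.0.16 in R 4.3.3 (filterByExpr, TMM, quasi-likelihood, Benjamini-Hochberg over all genes of the class, threshold 0.05). Region effects in controls, and their difference in mutants, were fitted with the mouse as a block. The SE of an edgeR fit was derived as the size of the log2 fold change over the square root of its F statistic. The 95% intervals of these fits used this SE and a t quantile. Two-sided exact permutation tests compared shares of nuclei, adjusted over 4 classes of a region. Exact Clopper-Pearson intervals at 95% cover counting error only. CPM are scaled to the UMIs of the summed class, without TMM factors.

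On simulated counts with 200 genes changed 2-fold, the deep brain genotype fit recovered 65% in endothelial cells (3653 genes tested) and 92.5% in OPC (10713 genes tested). The main genotype fits of both regions used no block, and the block by replicate number was run as an alternative. In the cortex, deviations of same-numbered mice from their group means correlated at 0.212 to 0.762 in all 6 pairs, which the main fits ignore. Mice 1 to 4 and mice 5 and 6 also formed 2 sets there, and some mice of different number correlated more than those of the same number (mutant 4 with control 3 at 0.52, mutant 6 with control 5 at 0.603), so the number does not stand alone. In the deep brain the correlations of same-numbered mice ran from −0.129 to 0.266. The text names the 6 members, pathway genes with an adjusted p under 0.05 (at most 5 per class and comparison) and, for each member, the 3 genes most like it over classes. The members and lists were chosen with earlier results of these data known. Alternatives were DESeq2 1.42.0, RLE factors, no filter on low counts, blocks by replicate number and by age, no mouse block, each mouse left out, at least 10 nuclei, doublets removed, less than 5% mitochondrial UMIs and a first resolution of 0.1. The endothelial nuclei without mural markers, the cortical libraries split at 70000000 UMIs, another clustering seed and looser naming limits (50% doublets) were chosen after seeing the data. Positions and the 60-base coding stretches were read from GRCm38 with GENCODE M21.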

Additional observations from a re-analysis of the deposited data

Results flagged for a closer look

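In a group of 6 libraries (5 for some), a library was singled out when it lay far from the rest by Dixon's test at 95%. This was tried in 138 groups, where chance would single out about 6.9, and 11 were found. Most concern *Pdgfc*, in CPM. It was high in oligodendrocytes of deep brain control mouse 2 (67.9), in cortical neurons of mutant mouse 6 (67.3) and of control mouse 5 (66.4), in cortical OPC of control mouse 5 (55.2), in cortical endothelial nuclei of mutant mouse 2 (160.0, on 16 UMIs) and in all cortical nuclei of control mouse 5 (64.0). *Pdgfd* was high in cortical fibroblasts of control mouse 2 (717, on 11 nuclei).

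The receptors gave 3 such libraries. *Pdgfrb* was high in deep brain endothelial nuclei of mutant mouse 3 (277) and low in all cortical nuclei of control mouse 1 (3.85). *Pdgfra* was high in cortical fibroblasts of mutant mouse 3 (360.2, on 9 nuclei). The share of mural nuclei was high in the cortex of control mouse 5 (0.208%), whose library was among the deepest.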

How the results depend on the processing

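The count of deep brain pairs called between genotypes, 0 by the fit without a block, was 2 without the filter on low counts, 2 with the replicate block and 3 with a block of mice matched by age, and 0 to 1 when each mouse was left out. Shares of all genes called are given for the main edgeR fits only. In both regions, counts under other settings therefore cannot be told apart from a general change in calls. With the replicate block the calls were *Pdgfd* in astrocytes (edgeR adjusted p = 0.0265) and in all nuclei (0.0265). Correlations of same-numbered deep brain libraries ran from −0.129 to 0.266 and were below 0 for mice 1 and 2, although by the labels mice 1 to 4 had the same age as their number in the other genotype. With the age block *Pdgfc* in astrocytes (0.0473), *Pdgfd* in astrocytes (0.0240) and *Pdgfd* in all nuclei (0.0479) were called. Without the filter *Pdgfc* in astrocytes (0.0427) and *Pdgfrb* in endothelial nuclei (8.32e-08) were called. Calls on leaving out 1 mouse are given with the results.

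In the cortex 1 pair was called, 4 with the replicate block, 2 with the age block (adding *Pdgfrb* in astrocytes, edgeR adjusted p = 0.0210), and 1 to 2 when each mouse was left out. The replicate block changed no other call between genotypes. *Pdgfd* in cortical astrocytes passed under each alternative run, at 1.16 to 1.43 when each mouse was left out. The difference between regions of the genotype effect gave 0 calls, and 1 without the filter (*Pdgfd* in astrocytes, 0.00491). The cause of these changes was not tested.

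For the lower mural share of the deep brain (−0.171 percentage points), the test within replicate numbers gave the smallest exact permutation p that 6 pairs allow. It adjusted to 0.125 and did not pass. The mean difference within numbers equals that between groups by construction, so it is no check of the size. The small share differences that turned sign were that of deep brain endothelial nuclei, to 0.00542 with the looser naming limits, and that of cortical fibroblasts, −0.192 to 0.0544 when each mouse was left out. The cortical mural difference stayed between −0.0590 and −0.0175. *Pdgfrb* in deep brain endothelial nuclei without mural markers differed by +6.21 CPM, on 2 UMIs in controls and 5 in mutants, which cannot show a direction. With another clustering seed 99.8% of deep brain and 97% of cortical nuclei kept their class, and with the looser limits 99.6% and 60.1%, since the shallow cortical cluster is then named as neurons. Neither changed a genotype call. Removal of doublets was not run in the cortex, where Scrublet called 0% to 46.8% of nuclei per library. At these depths a class with few nuclei, such as 53 mural nuclei in mutants, limits what can be called.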
